A study of Mus musculus with 12 samples.

Results

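The cluster of miR-290 to miR-295 is the chromosome 7 group of microRNA (miRNA) hairpins that dominates the small RNA of early mouse embryonic cells. Described here are the 6 arms cut from the 5′ side of its hairpins: mmu-miR-290a-5p, mmu-miR-291a-5p, mmu-miR-292a-5p, mmu-miR-293-5p, mmu-miR-294-5p and mmu-miR-295-5p, written below without the species prefix. They were chosen by name, as the rows of the count files for the 5p arms of these 6 hairpins, and not by their values. They are 6 of 1978 miRNAs in the files, and all 6 passed the filter on low counts that left 206 miRNAs for testing.

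The data are small RNA sequencing counts from cultured mouse stem cells of 2 kinds, E14 embryonic stem cells (ESC) and trophoblast stem cells (TSC), which give rise to the placenta and which the labels name by no line. The 4 groups were paused ESC, in which the growth kinase mTOR was inhibited, control ESC labelled WT, TSC paused in the same way and control TSC labelled WT. The labels give no agent, dose or duration of mTOR inhibition, and the ESC are 1 line in culture rather than embryos. The question in the study's design text is how miRNA expression differs when such cells are paused.

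In each group the file of replicate 3 was identical to that of replicate 2 at all 1978 miRNAs, and the pair was counted as 1 library, which leaves 8 distinct libraries and n = 2 per group. Total counts were 73574 and 61749 in paused ESC, 19266 and 13607 in control ESC, 23652 and 30487 in paused TSC, and 115492 and 18725 in control TSC. These totals are far below the sequencing depth in reads that the labels state as their aim, and whether the files hold all or a subset of the reads is not given in the sources used here, so shares and ranks are those of the deposited counts. A count of 0 allows up to 3 counts, which is worth 26.0 to 220 CPM (each count scaled by its library's size) across the libraries. This limit uses total counts alone, without the scaling factors in the CPM of the members below. The trophoblast markers miR-322-5p, miR-503-5p and miR-351-5p made up 5.26% to 6.91% of counts in paused TSC and 9.51% to 10.5% in control TSC, against 0.0680% to 0.118% in ESC, while miR-467a-5p and miR-669a-5p were at 0 in all 8 libraries. The 5 ESC markers, the miR-302 arms and miR-367-3p, summed to 0.00648% to 0.00816% in paused ESC and 0.234% to 0.434% in control ESC, to 0 in paused TSC and to at most 0.00520% in control TSC. Blood markers summed to 0.483% to 0.567% in paused ESC, 0.893% to 1.11% in control ESC and at most 0.0121% in TSC. Of these, miR-150-5p was higher in paused ESC (0.516% and 0.452%) than in control ESC (0.280% and 0.162%). Both miR-142a arms were lower there, the 5p arm at 0.0340% and 0.0178% against 0.426% and 0.661% in control ESC. The blood markers miR-223-3p and miR-451a were at 0 in all 8 libraries. Fibroblast markers summed to at most 0.114% with 3 of 6 at 0, and neural and liver markers to 0. The muscle markers held counts in 1 library only, 6 counts in control TSC. The part of other cell types in the results below was not tested.

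A miRNA hairpin is cut by the nucleases Drosha and Dicer into a duplex of a 5p and a 3p arm, and either arm can be loaded into an Argonaute protein, which it guides to mRNAs through its seed, bases 2 to 8. The cluster is transcribed as 1 precursor in early mouse embryos and their stem cells, and most of its 3p arms carry the AAGUGC seed family known in mouse ESC for promoting the cell cycle and keeping pluripotency. The 5p arms come from the same hairpins but carry different seeds, which pair with other mRNA sites.

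The 6 mature sequences are shown because the members are told apart, and grouped, by their seeds. They are from RefSeq's mouse table (build GRCm38), 5′ to 3′, with the seed in capitals.
miR-290a-5p: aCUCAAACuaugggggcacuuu
miR-291a-5p: cAUCAAAGuggaggcccucucu
miR-292a-5p: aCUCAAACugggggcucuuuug
miR-293-5p: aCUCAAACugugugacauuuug
miR-294-5p: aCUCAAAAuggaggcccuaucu
miR-295-5p: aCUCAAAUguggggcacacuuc
The 3 arms miR-290a-5p, miR-292a-5p and miR-293-5p share the seed CUCAAAC, which no other mouse miRNA in the table carries. Together with miR-295-5p and miR-294-5p, 5 of the 6 share the first bases CUCAAA of the seed. miR-291a-5p stands apart with AUCAAAG, a seed that it shares with miR-291b-5p of the same cluster.

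All 6 arms are 22 bases long. Over the whole length, seed included, 11 to 18 of 22 positions are identical between any pair of members. The highest value is that of miR-291a-5p and miR-294-5p, although their seeds differ. The near copy that matters for counting is miR-291b-5p, shown for comparison with miR-291a-5p above, from which it differs at 2 of 22 positions, 1 and 22 from the 5′ end.
miR-291b-5p: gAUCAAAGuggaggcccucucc
It had 2134 counts over the 8 libraries, against 28986 for miR-291a-5p. How reads matching both were counted is not given in the sources used here, so the level of miR-291a-5p is uncertain by the amount the pair could share.

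The cluster spans 2216 bp on the plus strand (chr7:3218626-3220841, GRCm38). The mature arms lie in the order of their numbers, miR-290a-5p at chr7:3218639-3218660, miR-291a-5p at chr7:3218932-3218953, miR-292a-5p at chr7:3219200-3219221, miR-293-5p at chr7:3220356-3220377, miR-294-5p at chr7:3220655-3220676 and miR-295-5p at chr7:3220779-3220800. The hairpin of miR-290a lies outside any Nlrp12 annotation, while the other 5 of the 6 hairpins lie within a UTR of Nlrp12 (chr7:3218784-3222475), an innate immune regulator gene on the opposite strand. The hairpins of miR-290b and miR-292b lie antisense to those of miR-290a and miR-292a, and all 4 of their arms had 0 counts in the 8 libraries.

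The 6 arms together took 39.7% and 35.7% of all miRNA counts in paused ESC, 36.5% and 30.9% in control ESC, 29.5% and 28.8% in paused TSC, and 24.9% and 24.3% in control TSC. Every ESC library lay above every TSC library. The sum averaged 35.7% ± 3.66 in ESC and 26.9% ± 2.66 in TSC (SD, n = 4 each, both states pooled), a difference of 8.83 percentage points with an exact two-sided permutation p of 0.0286, the smallest that 4 libraries against 4 can give. This and the later permutation tests of ESC against TSC exchanged libraries freely across both states. They did not hold state fixed, so their p-values ignore any difference between paused and control libraries. Between states the sum was 37.7% ± 2.81 in paused ESC and 33.7% ± 3.97 in control ESC (SD, n = 2 each), with overlapping libraries. It was 29.2% ± 0.462 in paused TSC and 24.6% ± 0.448 in control TSC (SD, n = 2 each), without overlap, but the exact permutation test of 2 libraries against 2 cannot go below p = 0.333. In the same libraries 4 entries of doubtful origin (miR-5126, miR-2137, miR-6240 and miR-5099) took 3.27% ± 0.247 of counts in paused TSC and 11.6% ± 2.79 in control TSC (SD, n = 2 each), and 2.76% ± 0.623 in ESC (SD, n = 4); their part in the TSC values was not tested. Because shares of a library sum to a fixed total, a lower share cannot be told apart from a gain of other RNAs.

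The 6 arms differed widely in level, and their order followed their order in the genome in 5 of the 8 libraries. The other 3 libraries each differed from it by a swap of 1 pair of neighbours, miR-291a-5p above miR-290a-5p in replicate 1 of paused ESC, and miR-292a-5p above miR-291a-5p in replicate 1 of paused TSC and replicate 2 of control TSC. Among all miRNAs of a library, miR-290a-5p ranked 1 or 2, miR-291a-5p 1 to 8, miR-292a-5p 3 to 8, miR-293-5p 7 to 14, miR-294-5p 13 to 25 and miR-295-5p 15 to 28. As mature miRNAs of 1 length their counts were compared directly, although capture by the library kit may differ between sequences.

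The steps between neighbours in that order differed in size. The ratio between the mean shares of counts of miR-290a-5p and miR-291a-5p, the top pair, was 1.04 in paused ESC (miR-291a-5p the higher). It was 1.36 in control ESC and 2.21 in both paused and control TSC (miR-290a-5p the higher). In paused ESC the libraries of miR-291a-5p and miR-290a-5p overlapped, and in control ESC, paused TSC and control TSC those of miR-291a-5p and miR-292a-5p did. No other neighbours overlapped in any group. The mean share of counts of miR-292a-5p was 1.61 times that of miR-293-5p in paused ESC and 2.06 times in control ESC. It was 3.08 times in paused TSC and 2.44 times in control TSC. The step down to miR-294-5p was 3.26-fold in paused ESC, 2.37-fold in control ESC, 2.12-fold in paused TSC and 2.45-fold in control TSC. The last step, to miR-295-5p, was smaller again, 1.21-fold in paused ESC, 1.42-fold in control ESC, 1.52-fold in paused TSC and 1.33-fold in control TSC. These levels are a description, with no test between miRNAs.

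**Figure D1:**
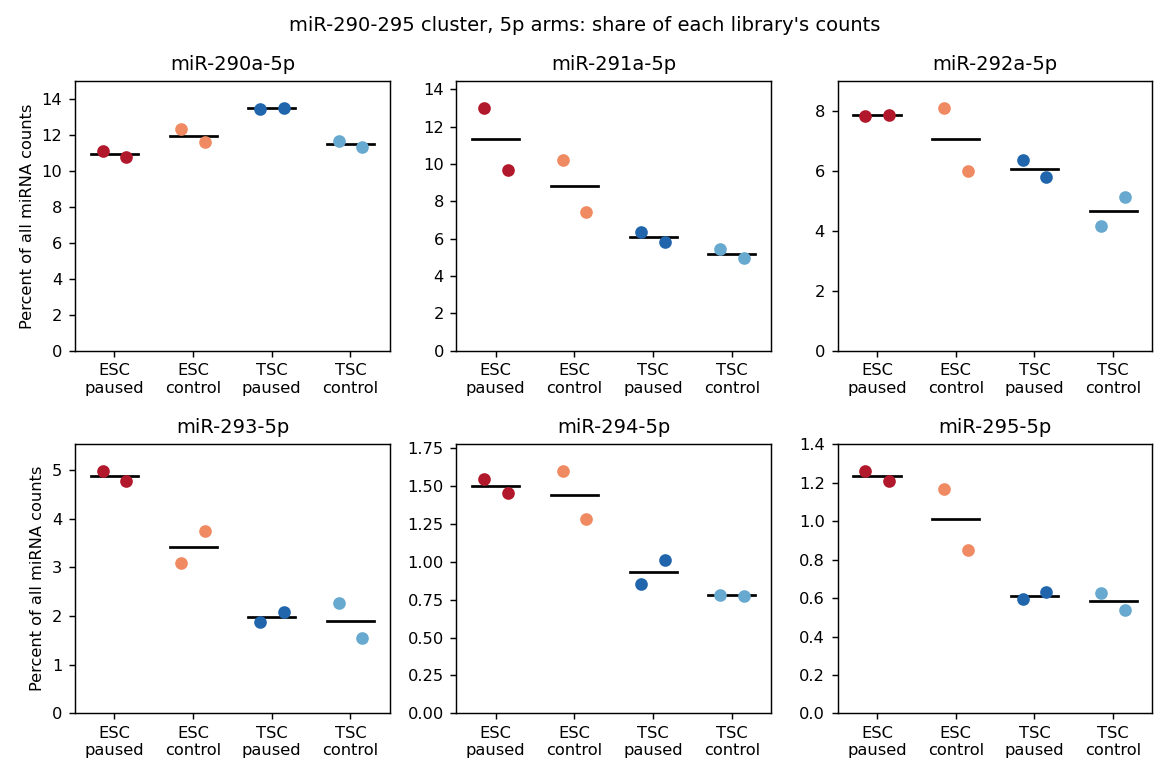
Share of all miRNA counts (percent, vertical axis from 0, a separate scale for each arm) in each library (points) with the group mean (line), for paused and control ESC and paused and control TSC. For miR-291a-5p and for miR-293-5p to miR-295-5p all 4 ESC libraries lie above all 4 TSC libraries, while for miR-290a-5p they overlap.

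mmu-miR-290a-5p, the first arm of the cluster, was the most abundant of the 6 in 7 of the 8 libraries. It made up 11.1% and 10.8% of counts in paused ESC, 12.3% and 11.6% in control ESC, 13.4% and 13.5% in paused TSC, and 11.6% and 11.3% in control TSC. It was the only one of the 6 with a lower mean share in ESC than in TSC, 11.4% ± 0.671 against 12.5% ± 1.15 (SD, n = 4 each; exact permutation p = 0.200). Its libraries overlapped between the cell types.

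mmu-miR-291a-5p, the arm with the odd seed, made up 13.0% and 9.67% of counts in paused ESC, 10.2% and 7.41% in control ESC, 6.36% and 5.84% in paused TSC, and 5.43% and 4.95% in control TSC. The cell types did not overlap, and the replicates of either ESC state were further apart than those of either TSC state. Its mean share was 10.1% ± 2.30 in ESC and 5.64% ± 0.601 in TSC (SD, n = 4 each; exact permutation p = 0.0286). The near copy miR-291b-5p was lower in ESC, at 0.0680% and 0.118% of counts in paused ESC and 0.130% and 0.132% in control ESC, against 1.18% and 0.846% in paused TSC and 1.08% and 1.004% in control TSC.

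mmu-miR-292a-5p made up 7.82% and 7.88% of counts in paused ESC, 8.10% and 6.004% in control ESC, 6.36% and 5.78% in paused TSC, and 4.17% and 5.14% in control TSC. Replicate 2 of control ESC lay within the range of paused TSC, so the cell types overlapped (7.45% ± 0.972 in ESC against 5.36% ± 0.941 in TSC, SD, n = 4 each; exact permutation p = 0.0571).

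mmu-miR-293-5p, which shares its seed with miR-290a-5p and miR-292a-5p, made up 4.98% and 4.78% of counts in paused ESC, 3.09% and 3.74% in control ESC, 1.87% and 2.07% in paused TSC, and 2.27% and 1.54% in control TSC. The highest pair was paused ESC, above control ESC without overlap, and the 2 TSC groups overlapped. Over both states the share was 4.15% ± 0.891 in ESC and 1.94% ± 0.310 in TSC (SD, n = 4 each; exact permutation p = 0.0286).

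The last arms were the least abundant. mmu-miR-294-5p made up 1.55% and 1.45% of counts in paused ESC, 1.60% and 1.28% in control ESC, 0.850% and 1.01% in paused TSC, and 0.781% and 0.774% in control TSC. mmu-miR-295-5p made up 1.26% and 1.21% in paused ESC, 1.17% and 0.853% in control ESC, 0.596% and 0.630% in paused TSC, and 0.627% and 0.539% in control TSC. For both, no ESC library overlapped a TSC library (exact permutation p = 0.0286 for each, n = 4 against 4), with means of 1.47% ± 0.141 in ESC and 0.855% ± 0.111 in TSC for miR-294-5p and 1.12% ± 0.185 in ESC and 0.598% ± 0.0420 in TSC for miR-295-5p (SD, n = 4 each). These 6 tests, 1 for each arm, are given without adjustment.

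Shares within the 6 arms do not depend on how libraries are scaled to each other, and in these ESC and TSC differed. miR-290a-5p held 28.0% and 30.1% of the 5p arm counts in paused ESC, 33.7% and 37.5% in control ESC, 45.6% and 46.8% in paused TSC, and 46.7% and 46.7% in control TSC. It averaged 32.3% ± 4.20 in ESC and 46.4% ± 0.572 in TSC (SD, n = 4 each), 14.1 percentage points lower in ESC (difference -14.1, exact permutation p = 0.0286).

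miR-291a-5p took up 6.94 of those points, with 32.7% and 27.1% in paused ESC, 28.0% and 24.0% in control ESC, 21.6% and 20.3% in paused TSC, and 21.8% and 20.4% in control TSC (27.9% ± 3.61 in ESC and 21.0% ± 0.795 in TSC, SD, n = 4 each). The cell types did not overlap for this arm, for miR-294-5p (4.12% ± 0.203 in ESC and 3.18% ± 0.260 in TSC) or for miR-295-5p (3.13% ± 0.263 in ESC and 2.24% ± 0.206 in TSC), each with an exact permutation p of 0.0286 (SD, n = 4 each). They overlapped for miR-293-5p, with 11.6% ± 2.17 in ESC and 7.25% ± 1.30 in TSC (SD, n = 4 each; exact permutation p = 0.0571). For miR-292a-5p the libraries overlapped as well, 20.8% ± 1.47 in ESC and 19.9% ± 2.20 in TSC (SD, n = 4 each; exact permutation p = 0.486).

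**Figure D2:**
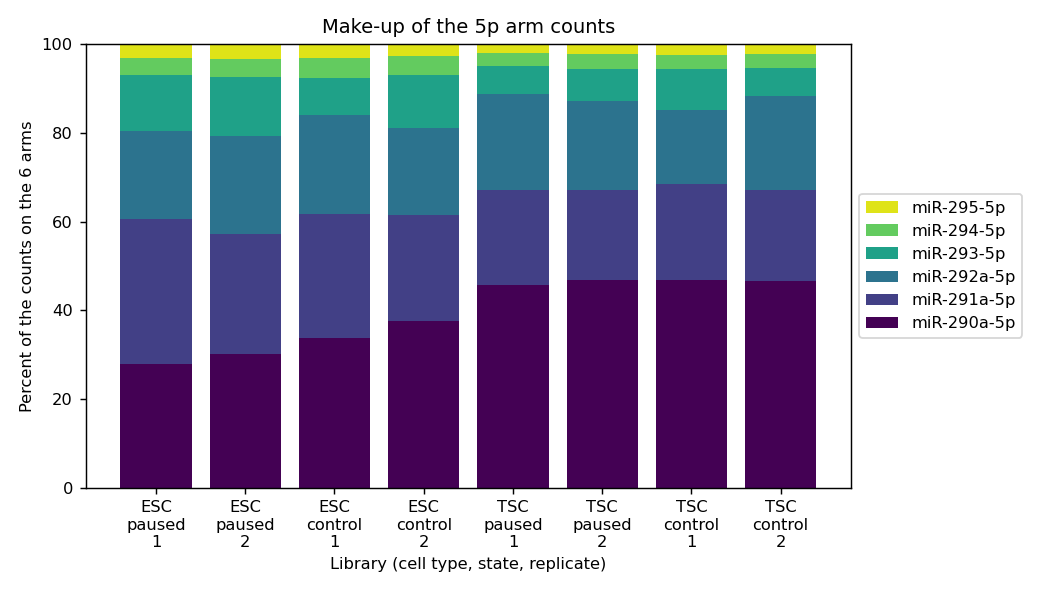
Make-up of the counts on the 6 arms in each of the 8 libraries (stacked bars, percent of the 5p arm counts, miR-290a-5p at the bottom). miR-290a-5p takes 45.6% to 46.8% of the bar in the 4 TSC libraries and 28.0% to 37.5% in the 4 ESC libraries.

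Within ESC the share of miR-290a-5p was also lower in paused libraries (29.0% ± 1.51) than in control libraries (35.6% ± 2.68; SD, n = 2 each), without overlap and with an exact permutation p of 0.333, the smallest possible. Within TSC it was 46.2% ± 0.853 in paused and 46.7% ± 0.0135 in control libraries (SD, n = 2 each), with overlap. Grouped by seed, the 3 CUCAAAC arms took 23.9% and 23.4% of all counts in paused ESC, 23.5% and 21.3% in control ESC, 21.7% and 21.3% in paused TSC, and 18.1% and 18.0% in control TSC. Both states of TSC lay lower than paused ESC for this sum, and paused TSC overlapped control ESC.

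Relative levels were then compared in edgeR, in 1 quasi-likelihood fit of all 206 miRNAs with TMM scaling (a trimmed mean of the log ratios between libraries), and with calls at a Benjamini-Hochberg adjusted p under 0.05. That fit replaced each miRNA's own variance by the trend over all miRNAs, so its p-values do not use the distance between a miRNA's own replicates. Pausing called none of the 6 arms in ESC, where 27.7% of all tested miRNAs were called; 1 of the 6, miR-293-5p, had an unadjusted edgeR p under 0.05 and was called by DESeq2 (0.75). The log2 fold change, paused over control, was 0.62 ± 0.31 (SE) for miR-293-5p (edgeR adjusted p = 0.121), with 46469 and 46388 CPM in paused ESC, against 27565 and 33066 CPM in control ESC. It was 0.46 ± 0.30 for miR-291a-5p, 0.38 ± 0.33 for miR-295-5p, 0.25 ± 0.30 for miR-292a-5p, 0.15 ± 0.32 for miR-294-5p and -0.03 ± 0.29 for miR-290a-5p (SE, n = 2 libraries in each group), with a median of 0.32 over the members and -0.03 over all tested miRNAs. Without replicate 1 of paused TSC, 3 of the 6 were called in ESC (miR-291a-5p, miR-293-5p and miR-295-5p), and with 1 library left out miR-293-5p was called in 6 of the 8 fits (0.59 to 1.10) and miR-291a-5p in 5 (0.23 to 1.10), not without replicate 1 of paused ESC, replicate 2 of control ESC or replicate 2 of paused TSC. The other ranges were 0.36 to 1.004 for miR-295-5p and 0.26 to 0.85 for miR-292a-5p, called in 1 fit each, and 0.11 to 0.70 for miR-294-5p, called in 0.

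In TSC pausing also called 0 of the 6, where 18.9% of all tested miRNAs were called; 0 of the 6 had an unadjusted edgeR p under 0.05, and 0 were called by DESeq2. The log2 fold changes, paused over control, were -0.23 ± 0.29 for miR-290a-5p, -0.23 ± 0.30 for miR-291a-5p, -0.05 ± 0.30 for miR-292a-5p, -0.45 ± 0.31 for miR-293-5p, -0.21 ± 0.32 for miR-294-5p and -0.41 ± 0.33 for miR-295-5p (SE, n = 2 libraries in each group). Their median was -0.23, against -0.39 over all tested miRNAs. All 6 values turned positive when libraries were scaled by total count alone, from 0.04 for miR-293-5p to 0.39 for miR-292a-5p, and the median of all tested miRNAs then moved to 0.08, so no direction is given for TSC. The TMM factor was 0.678 in replicate 1 of control TSC, 0.887 in its replicate 2 and 1.03 to 1.15 in the other 6 libraries.

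The test of the difference between the pause effects, ESC minus TSC, called 0 of the 6 arms, where 26.2% of all tested miRNAs were called. It came nearest for miR-293-5p, at 1.07 ± 0.43 (SE; edgeR adjusted p = 0.0509, unadjusted p = 0.0141), the 1 arm of the 6 with an unadjusted p under 0.05. The other differences were 0.80 for miR-295-5p, 0.68 for miR-291a-5p, 0.36 for miR-294-5p, 0.30 for miR-292a-5p and 0.20 for miR-290a-5p. With 1 library left out, miR-293-5p was called in 2 of the 8 fits, without replicate 2 of control ESC (1.21) and without replicate 2 of control TSC (1.09). Its difference was 0.35 without replicate 1 of control TSC (edgeR adjusted p = 0.485) and 0.64 without replicate 1 of paused ESC, and 0.47 with libraries scaled by total count. Without replicate 1 of control TSC the difference was 0.29 for miR-295-5p and 0.25 for miR-291a-5p, and without replicate 1 of paused ESC it was 0.38 for miR-295-5p and 0.086 for miR-291a-5p.

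Between the cell types, 4 of the 6 arms were higher in ESC than in TSC in the paused state, where 76.7% of all tested miRNAs were called and 37.4% were called higher. miR-293-5p had a log2 fold change of 1.29 ± 0.31 (edgeR adjusted p = 6.62e-05), with 46469 and 46388 CPM in paused ESC, against 18613 and 19394 CPM in paused TSC. miR-295-5p was higher by 0.99 ± 0.33 (adjusted p = 0.00381), miR-291a-5p by 0.87 ± 0.30 (adjusted p = 0.00554) and miR-294-5p by 0.67 ± 0.32 (adjusted p = 0.0485; SE in each case). miR-292a-5p, at 0.35 ± 0.30, and miR-290a-5p, at -0.32 ± 0.29, did not pass. miR-292a-5p was also called higher, making 5 of 6, under DESeq2 (0.76), median-of-ratios scaling (0.76) and TMM without the cluster (1.04), and in 4 of the 8 fits with 1 library left out, those without a control library (0.42 to 0.58). The median over the members was 0.77, against 0.02 over all tested miRNAs, and a count of 4 of 6 stands beside a background in which most miRNAs differ. The call for miR-294-5p was lost without replicate 1 of paused ESC (0.62), without replicate 1 of paused TSC (0.59) and with a replicate block (0.66).

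In the control state 0 of the 6 were called, where 74.3% of all tested miRNAs were called and 33.5% were called higher; no unadjusted edgeR p of the 6 was under 0.05. The log2 fold changes, ESC over TSC, were -0.52 for miR-290a-5p (edgeR adjusted p = 0.0998), 0.18 for miR-291a-5p, 0.05 for miR-292a-5p, 0.22 for miR-293-5p, 0.31 for miR-294-5p and 0.19 for miR-295-5p. This depended on the scaling. DESeq2, median-of-ratios scaling and total count alone each called 5 of the 6 higher in ESC, with log2 fold changes of 0.77 for miR-291a-5p and 0.89 for miR-294-5p at total count alone. The median of all tested miRNAs was -0.23 under TMM, 0.29 under median of ratios and 0.41 under total count. Without replicate 1 of control TSC, the deepest library, 4 of the 6 were called higher, and without either replicate of paused ESC 3 were.

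**Figure D3:**
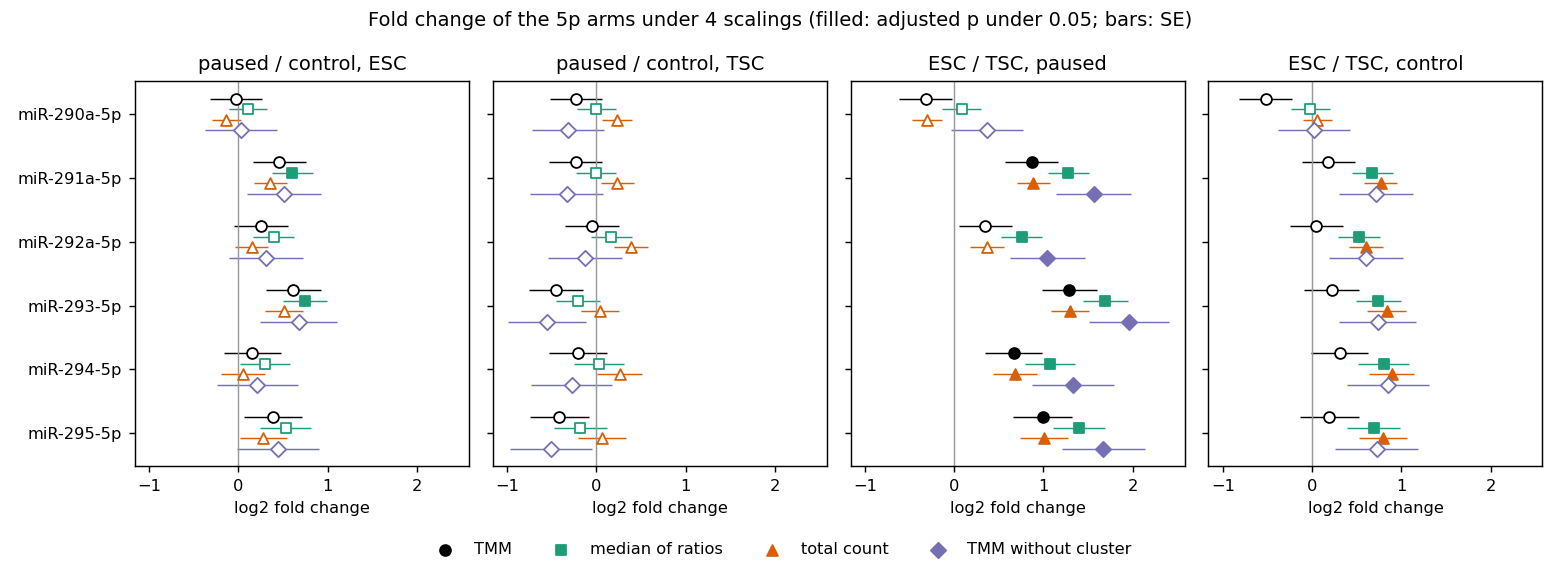
log2 fold change of each 5p arm (horizontal axis, bars: SE) in 4 comparisons under 4 scalings of the libraries (symbols), filled where the adjusted p is under 0.05. miR-291a-5p and the 3 arms from miR-293-5p to miR-295-5p are higher in paused ESC than in paused TSC under all 4 scalings, whereas the values for pausing in TSC lie on both sides of 0.

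The ratio of the 5p to the 3p arm of 1 hairpin is read within a library, so it is free of the scaling. The hairpins fell into 3 kinds by arm use. Nearly all counts of the miR-290a hairpin (98.8% to 99.8%) lay on the 5p arm, and its 3p arm had only 7 to 56 counts per library. The miR-292a hairpin was also mostly 5p (74.1% to 82.1%), the miR-291a (34.0% to 68.7%) and miR-293 (26.1% to 60.0%) hairpins were mixed, and the miR-294 (11.0% to 20.8%) and miR-295 (9.83% to 21.5%) hairpins were mostly 3p. Over the 6 hairpins summed, the 5p arms held 55.6% ± 4.58 in ESC and 51.2% ± 2.63 in TSC (SD, n = 4 each; exact permutation p = 0.143).

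miR-293 had the arm ratio that changed with pausing in ESC. Its 3p arm is shown because it is the partner against which the 5p arm was measured, and its seed GUGCCGC lacks the AAGUGC start that the 3p arms of miR-290a, miR-291a, miR-294 and miR-295 have in the same table.
miR-293-3p: aGUGCCGCagaguuuguagugu
The 5p arm had 3666 and 2950 counts in paused ESC, 595 and 509 in control ESC, 443 and 632 in paused TSC, and 2621 and 289 in control TSC. The 3p arm had 2447 and 2490 counts in paused ESC, 1262 and 986 in control ESC, 1256 and 1586 in paused TSC, and 4679 and 617 in control TSC.

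The 5p arm thus held 60.0% and 54.2% of the hairpin's counts in paused ESC, 32.0% and 34.0% in control ESC, 26.1% and 28.5% in paused TSC, and 35.9% and 31.9% in control TSC. The 5p arm was the larger of the pair in the 2 paused ESC libraries only. The 95% Wilson intervals, which cover counting error only, ran from 58.7% to 61.2% and from 52.9% to 55.5% in paused ESC, and from 30.0% to 34.2% and from 31.7% to 36.5% in control ESC. Means were 57.1% ± 4.06 in paused ESC and 33.0% ± 1.42 in control ESC, and 27.3% ± 1.71 in paused TSC and 33.9% ± 2.83 in control TSC (SD, n = 2 each), so the paused share was 24.1 points higher in ESC (exact permutation p = 0.333, the smallest possible).

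The log2 5p to 3p ratio was tested in limma over the 40 hairpins with both arms among the tested miRNAs, a test added after the data had been seen. With pausing in ESC, miR-293 was the only one of the 6 hairpins called, at 1.43 ± 0.25 (SE; limma adjusted p = 7.59e-05), where 7.5% of the 40 hairpins were called. The median log2 ratio difference was 0.35 over all 40 hairpins and 0.59 over the 6, with miR-292a (-0.08) and miR-294 (-0.48) below 0. A general move toward the 5p arm was not tested. Total counts also differed between the states, 73574 and 61749 in paused ESC against 19266 and 13607 in control ESC, and the part of depth was not tested. In TSC its value was -0.45 ± 0.25 (limma adjusted p = 0.617); 0 of the 6, and 0% of the 40 hairpins, were called there, and no p of the 6 was under 0.05 before adjustment. The difference of those pause effects was 1.88 ± 0.35 (limma adjusted p = 0.00025), and miR-293 was the only 1 of the 40 called (2.5%). Both miR-293 calls held in all 8 fits that left out 1 library (1.26 to 1.60 in ESC and 1.71 to 2.05 for the difference), but both were lost when the variance of each hairpin was drawn to 1 constant prior rather than to a trend with abundance (adjusted p = 0.122 and 0.123).

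The fold changes of the 2 arms had opposite signs in ESC. miR-293-3p fell by 0.80 ± 0.30 (log2, paused over control, SE; edgeR adjusted p = 0.0318), while the value of 0.62 for miR-293-5p did not pass. The value for miR-293-3p was negative under all 18 alternatives run, but the call was lost in 3 of the 10 that kept every library (TMM without the cluster, no filter and a 10 CPM filter) and in 6 of the 8 with 1 library left out, those without either library of paused ESC, control ESC or paused TSC, where it ran from -0.77 to -0.41. Of the other 5 partner 3p arms, none was called in ESC: miR-294-3p had 0.65 (edgeR adjusted p = 0.0926), miR-292a-3p 0.36, miR-291a-3p -0.15, miR-295-3p -0.17 and miR-290a-3p -0.65. None of the 6 partner 3p arms was called in TSC, and the difference of pause effects was called for miR-294-3p alone (1.06, edgeR adjusted p = 0.0470), a call that held with 1 library left out only without replicate 2 of control ESC or replicate 2 of control TSC (range 0.56 to 1.16 over the 8 fits) and was lost in 5 of the 9 alternatives that kept every library.

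**Figure D4:**
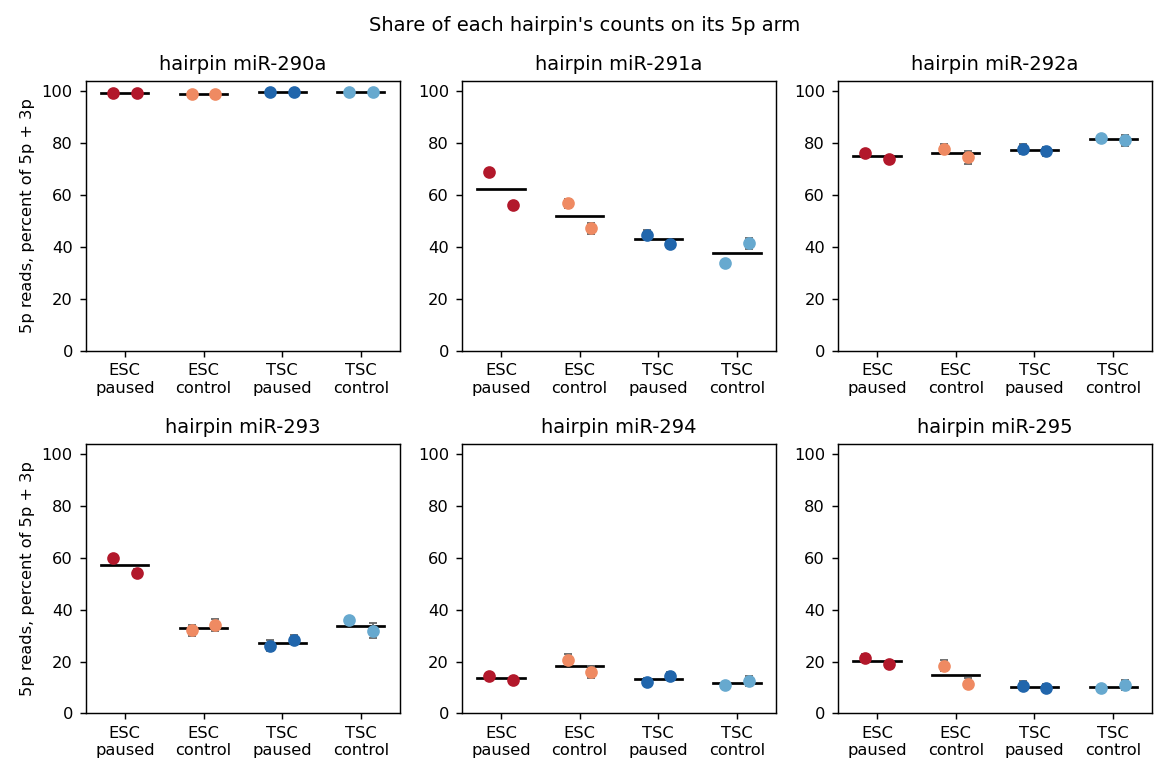
Share of each hairpin's counts that lie on the 5p arm (percent of 5p plus 3p, vertical axis) in each library (points) with 95% Wilson intervals and the group mean (line). The miR-293 panel shows paused ESC at 54.2% to 60.0%, above the other 6 libraries at 26.1% to 35.9%.

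The other hairpins changed less with pausing. In ESC the log2 ratio difference, paused minus control, was 0.65 for miR-290a, 0.62 for miR-291a, 0.56 for miR-295, -0.08 for miR-292a and -0.48 for miR-294. All had a limma adjusted p of 0.130 or more. Before adjustment the limma p was under 0.05 for miR-290a (0.0366), miR-291a (0.0261) and miR-295 (0.0454), and not for miR-292a or miR-294. In TSC it lay between -0.38 for miR-292a and 0.32 for miR-291a among those 5 hairpins.

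**Figure D5:**
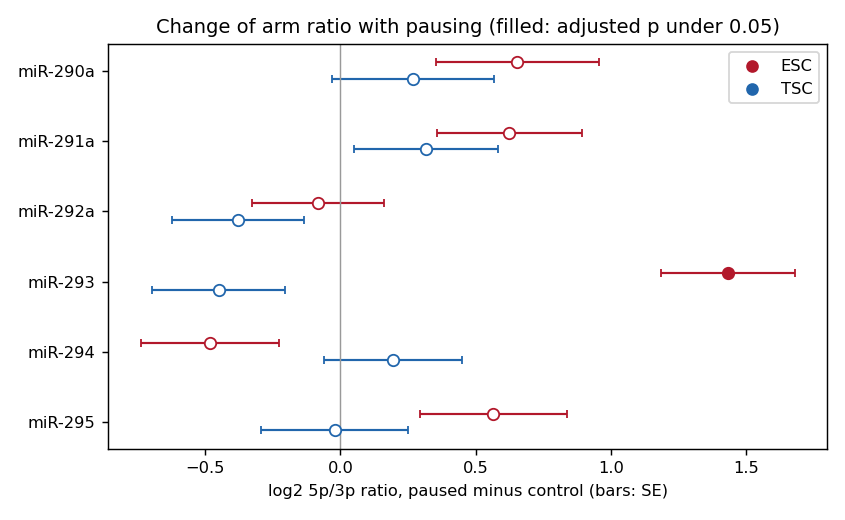
Change of the log2 5p to 3p ratio with pausing (paused minus control, horizontal axis, bars: SE) for the 6 hairpins in ESC and TSC, filled where the limma adjusted p is under 0.05. The miR-293 point for ESC, at 1.43, is the only filled one, and the TSC point of the same hairpin lies at -0.45.

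Arm use also differed between the cell types. The miR-291a hairpin had 68.7% and 56.1% of its counts on the 5p arm in paused ESC and 56.9% and 47.3% in control ESC, against 44.8% and 41.0% in paused TSC and 34.0% and 41.4% in control TSC. No ESC library overlapped a TSC library (57.2% ± 8.82 in ESC and 40.3% ± 4.54 in TSC, SD, n = 4 each; exact permutation p = 0.0286). The miR-295 hairpin had 21.5% and 19.0% in paused ESC and 18.4% and 11.4% in control ESC, against 10.6% and 9.83% in paused TSC and 9.87% and 10.8% in control TSC, again without overlap (17.6% ± 4.31 in ESC and 10.3% ± 0.490 in TSC, SD, n = 4 each; exact permutation p = 0.0286). The miR-290a hairpin went the other way, with 99.2% ± 0.251 in ESC and 99.8% ± 0.0579 in TSC (SD, n = 4 each; exact permutation p = 0.0286). The cell types overlapped for the miR-292a, miR-293 and miR-294 hairpins (exact permutation p = 0.0857, 0.114 and 0.0571, n = 4 each). These permutation p-values are unadjusted. With Benjamini-Hochberg adjustment over the 6 hairpins, the permutation p for miR-290a, miR-291a and miR-295 became 0.0571, so no hairpin was under 0.05.

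In limma the log2 ratio, ESC minus TSC, was called for 4 of the 6 hairpins in the paused state, where 40% of the 40 hairpins were called. Called toward the 5p arm in ESC were miR-293 (1.83 ± 0.25, limma adjusted p = 3.97e-07), miR-291a (1.16 ± 0.27, adjusted p = 0.00112) and miR-295 (1.16 ± 0.27, adjusted p = 0.00112). Called toward the 3p arm was miR-290a (-1.52 ± 0.30, adjusted p = 0.000225). With 1 library left out, the paused call for miR-291a was lost in 1 of the 8 fits. The paused values in these fits ran from 0.76 to 1.55 for miR-291a and from 1.04 to 1.27 for miR-295. Under a constant prior variance the paused calls for miR-291a (limma adjusted p = 0.0920) and miR-295 (0.0792) were lost. In the control state 3 of the 6 were called, where 12.5% of the 40 hairpins were: miR-290a (-1.90 ± 0.30, adjusted p = 1.31e-05), miR-291a (0.85 ± 0.27, adjusted p = 0.0331) and miR-294 (0.75 ± 0.25, adjusted p = 0.0494). The calls for miR-291a (0.57 to 1.13) and miR-294 (0.51 to 0.99) in the control state were each lost in 5 of the 8 fits with 1 library left out, those without replicate 1 of control ESC or any TSC library, and under a constant prior variance (adjusted p = 0.382 for both); that for miR-294 was also lost with a replicate block (0.75). For miR-293 the ESC and TSC control ratios differed by only -0.05 ± 0.25, and its difference between the cell types in the paused state rests on the same paused ESC libraries as its pause effect. The miR-290a value rests on 7 to 56 counts of its 3p arm per library.

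Over the 8 libraries the log2 CPM of 5 of the members varied together, with Pearson r between 0.586 (miR-292a-5p and miR-293-5p) and 0.968 (miR-294-5p and miR-295-5p). miR-290a-5p ran against them, with r between -0.480 and -0.289. The points share libraries, scaling and 2 cell types, and the values are a description. Among 192 tested miRNAs outside the cluster, the ones whose log2 CPM was most like the mean of the 6 members over the 8 libraries were miR-31-5p (r = 0.928), miR-23b-3p (r = 0.900) and miR-361-5p (r = 0.899). All were sparse beside the members: miR-31-5p had 53 and 60 counts in paused ESC and 8 and 3 in control ESC, against 4 and 5 in paused TSC and 25 and 1 in control TSC.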

How the data were processed

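The authors deposited unnormalised counts, a whole number for each mature arm; their build was GRCm38, per the submitters' processing notes. Not given in the sources used here are the aligner, the counter, the miRNA annotation and the handling of reads that match several loci. Libraries came from the SMARTer smRNA-seq kit, per the labels' protocols, which name no molecular identifiers, so intervals and limits cover counting error only. The labels do not state separate cultures, so p-values measure the spread between libraries, which may be technical.

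Counts were fitted with edgeR 4.0.16 (R 4.3.3; TMM; filterByExpr with a minimum of 10 counts; 1 mean per group over 8 libraries; 4 residual degrees of freedom; common dispersion 0.0456). CPM use the TMM factors, except the limit for a count of 0, which uses total counts. Arm ratios were tested in limma 3.58.1 (pseudocount 0.5, trended prior variance). Sums and shares were compared by exact two-sided permutation tests, which for ESC against TSC did not hold state fixed. DESeq2 1.42.0, other scalings and filters, a replicate block and leaving out each library were alternatives. Scripts were tested on simulated counts. Text names all 6 members, the 3p arm of each hairpin, fixed markers and the 3 most alike miRNAs; miR-291b-5p is named by its seed and the 4 doubtful entries as a listed denominator. The members, lists and rules were chosen with earlier results of these data known.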

Additional observations from a re-analysis of the deposited data

Results flagged for a closer look

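The log2 5p to 3p ratio of miR-293 stood out because the effect of pausing differed between the cell types in a test of the difference itself. Paused minus control was 1.43 in ESC and -0.45 in TSC, a difference of 1.883 (limma adjusted p = 0.00025). On the scale of shares, the 5p arm of the miR-293 hairpin was 24.06 percentage points higher in paused than in control ESC and was changed by -6.62 points in paused against control TSC, with every library of each cell type on its side.

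miR-290a-5p also moved in opposite directions as a share of all counts. Paused minus control was -1.014 percentage points in ESC (10.9% ± 0.248 against 11.9% ± 0.512) and 1.98 points in TSC (13.5% ± 0.0355 against 11.5% ± 0.212; SD, n = 2 each), without overlap in either. That difference between the cell types was not tested on this scale, and in edgeR the difference of pause effects for miR-290a-5p was 0.20 (adjusted p = 0.780). The 4 doubtful entries took 3.27% of counts in paused TSC and 11.6% in control TSC, and their part in it was not tested.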

How the results depend on the processing

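Depth and 2 libraries per group limit all comparisons: exact tests of 2 against 2 cannot go below p = 0.333, and with 1 library left out of 4 against 4 they cannot go below 0.0571. Same-numbered libraries did not deviate together over the tested miRNAs (r = -0.07 between paused and control ESC and -0.18 between paused and control TSC). With so few counts per library, such an r cannot decide whether replicate numbers pair the libraries. The main fit did not pair them. With a replicate block the members called were 0 in each pause contrast, in their difference and for ESC against TSC control, and 3 for ESC against TSC paused, where miR-294-5p (0.66) was lost. A block with crossed TSC numbers, added after seeing the data, called 25 miRNAs and 0 members with pausing in TSC.

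Members called with pausing in ESC numbered 1 with DESeq2, 2 with median-of-ratios scaling, 3 with every deposited file as a library, 1 with only the compared groups fitted, and 0 to 3 with 1 library left out. For the difference of pause effects the count was 1 with median-of-ratios scaling, 1 with a 10 CPM filter, 2 with every file as a library and 0 to 1 with 1 library left out. For ESC against TSC control it was 5 with DESeq2, median-of-ratios scaling or total count, 1 (miR-290a-5p, lower) with every file as a library, and 0 to 4 with 1 library left out. For ESC against TSC paused the count was 3 to 6 over the alternatives that kept every library, and miR-290a-5p (lower) was called in 1 of them. Taking every file as a library enters the identical files of replicates 2 and 3 as separate libraries. Its calls therefore rest on an understated spread between libraries. The 5p share of arm counts differed between ESC and TSC by 6.32 points when hairpins were weighted equally (exact permutation p = 0.0286). The 5p share of all counts, ESC minus TSC, ranged from 7.49 to 10.4 points over its alternatives.

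Signs turned as follows, in log2; the cause was not tested. For miR-290a-5p with pausing in ESC, the value was 0.11 with DESeq2 and median-of-ratios scaling, 0.029 with TMM without the cluster, 0.27 without a filter and 0.19 with the 10 CPM filter. With pausing in TSC, total count gave 0.23 for miR-290a-5p, 0.24 for miR-291a-5p, 0.39 for miR-292a-5p, 0.044 for miR-293-5p, 0.26 for miR-294-5p and 0.066 for miR-295-5p. No filter gave 0.085, 0.079, 0.25 and 0.12 for miR-290a-5p, miR-291a-5p, miR-292a-5p and miR-294-5p there, DESeq2 gave 0.17 for miR-292a-5p and 0.025 for miR-294-5p, and median-of-ratios scaling gave 0.00021, 0.17 and 0.026 for miR-291a-5p, miR-292a-5p and miR-294-5p. Fitting only TSC gave 0.10 for miR-292a-5p. Total count turned the difference of pause effects to -0.37 for miR-290a-5p, -0.24 for miR-292a-5p and -0.21 for miR-294-5p. For ESC against TSC control, miR-290a-5p had 0.061 with total count and 0.019 with TMM without the cluster, and miR-292a-5p -0.00223 with every file as a library. For ESC against TSC paused, miR-290a-5p had 0.087 with DESeq2, 0.086 with median-of-ratios scaling, 0.36 with TMM without the cluster, 0.022 without a filter and 0.33 with the 10 CPM filter.

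With 1 library left out, signs turned in some or all of the fits, over these ranges. For pausing in ESC, miR-290a-5p ran from -0.050 to 0.38. For pausing in TSC, miR-290a-5p ran from 0.051 to 0.25, miR-291a-5p from 0.0089 to 0.30, miR-292a-5p from 0.23 to 0.38, miR-293-5p from -0.36 to 0.35, miR-294-5p from -0.030 to 0.34 and miR-295-5p from -0.19 to 0.18. All 8 of these fits were thus positive for miR-290a-5p, miR-291a-5p and miR-292a-5p, against -0.23, -0.23 and -0.05 in the main fit. For the difference, miR-290a-5p ran from -0.20 to 0.31, miR-292a-5p from -0.053 to 0.62 and miR-294-5p from -0.062 to 0.59, and for ESC against TSC control miR-292a-5p ran from -0.038 to 0.44. Arm ratios ran from -0.22 to 0.050 (miR-292a, pausing in ESC), -0.050 to 0.59 and -0.097 to 0.054 (miR-290a and miR-295, pausing in TSC), -0.085 to 0.70 (miR-291a, difference), -0.18 to 0.074 (miR-293, ESC against TSC control) and -0.067 to 0.21 (miR-294, ESC against TSC paused). The share of miR-292a-5p within the 6 arms, ESC minus TSC, ran from -0.084 to 1.53 points. A constant prior variance, added after seeing the data, ended the arm ratio calls between the cell types for miR-290a (adjusted p = 0.0664), miR-291a and miR-294 (both 0.382) in control cells and for miR-291a (0.0920) and miR-295 (0.0792) in paused cells, besides both pause calls of miR-293.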
